A study of Homo sapiens with 6 samples.

Results

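Chromosome 19 carries the densest collection of zinc finger genes in the human genome, and these genes were compared between SiHa cells with and without overexpressed BRCA1. The members were all protein-coding genes whose symbol is ZNF followed by a number and which the deposited table places on chromosome 19, regardless of their expression. This rule gave 249 of the 58174 genes in the data. SiHa cells are an established line of human cervical squamous carcinoma and carry human papillomavirus. In the OV-BRCA1 group the cells received the GV230-BRCA1 plasmid, in the NC group they received the empty GV230 vector, and all cells were transfected with Lipofectamine 3000 and harvested after 48 h. Each group had 3 biological replicates, for which mRNA was captured on beads and sequenced. Both groups come from 1 cell line under transient transfection, and the share of cells that took up the plasmid is not given in the sources used here. The values are FPKM, the fragments of a transcript scaled to its length and to the mapped fragments of the sample, summed here over the transcripts of a gene.

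A C2H2 zinc finger is a short protein fold held by a zinc ion, and a row of such fingers reads a DNA sequence. Most chromosome 19 zinc finger proteins also carry a KRAB box, which binds the corepressor TRIM28 (KAP1). TRIM28 in turn brings in the histone methyltransferase SETDB1, HP1 proteins and the NuRD deacetylase complex, and the main known targets of this repression are transposable elements. The genes arose by repeated tandem duplication, so neighbours are often close copies of each other. Among the members, ZNF350 (ZBRK1) is known as a direct partner of BRCA1 in repressing GADD45A.

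The finger count followed from the coding sequence of each gene in GENCODE release 29 (GRCh38). The members had a median of 12 fingers, with a range of 0 to 39. A KRAB box was found in 214 members and not in 35. With neighbours joined when their starts lay within 1 Mb, the members formed 16 gene groups along the chromosome, each called here by its first and last gene.

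The promoters of 3 members are shown because these genes are among those with the largest changes, ZNF224 lower and ZNF121 and ZNF562 higher in the OV-BRCA1 group, and because each holds an element that recurs among its neighbours. They were picked after the values had been seen. Each sequence is from RefSeq (GRCh38.p14), runs 5′ to 3′ on the gene's own strand and spans 250 bases before to 50 bases after the annotated start. Capitals mark TGACGTCA, the palindromic cAMP response element, and TTCNNNGAA, the palindrome read by STAT factors. The window of ZNF224 is chr19:44094111-44094410 on the plus strand, that of ZNF121 is chr19:9584455-9584754 on the minus strand and that of ZNF562 is chr19:9675051-9675350 on the minus strand.
ZNF224: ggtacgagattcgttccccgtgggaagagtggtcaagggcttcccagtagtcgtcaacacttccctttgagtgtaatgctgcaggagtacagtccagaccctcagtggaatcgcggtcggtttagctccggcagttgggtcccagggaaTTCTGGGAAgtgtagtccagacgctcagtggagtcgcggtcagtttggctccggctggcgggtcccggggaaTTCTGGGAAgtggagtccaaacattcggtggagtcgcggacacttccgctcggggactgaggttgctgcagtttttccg
ZNF121: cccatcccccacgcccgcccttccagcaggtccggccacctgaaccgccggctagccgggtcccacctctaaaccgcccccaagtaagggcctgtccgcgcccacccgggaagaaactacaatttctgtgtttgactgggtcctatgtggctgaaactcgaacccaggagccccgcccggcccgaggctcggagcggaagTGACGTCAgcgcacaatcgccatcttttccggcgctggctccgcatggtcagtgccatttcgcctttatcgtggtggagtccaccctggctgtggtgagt
ZNF562: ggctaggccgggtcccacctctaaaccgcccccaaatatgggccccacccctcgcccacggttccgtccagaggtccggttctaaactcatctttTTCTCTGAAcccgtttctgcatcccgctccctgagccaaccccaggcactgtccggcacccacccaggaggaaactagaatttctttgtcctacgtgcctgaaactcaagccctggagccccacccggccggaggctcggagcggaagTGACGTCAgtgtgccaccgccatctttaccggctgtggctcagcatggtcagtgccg

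ZNF121 and ZNF562 lie close together and their promoters are recognisably copies. In a global alignment 196 letters were identical and 41 differed, which is 82.7% identity over the aligned letters, with 126 letters in gaps. Against ZNF224 the identity was 64.5% for ZNF121 and 63.1% for ZNF562. The cAMP response element began at position -50 from the start in ZNF121 and at position -7 in ZNF562, and in both it follows the letters gcggaag. ZNF224 held TTCNNNGAA at 2 places, positions -101 and -29 from the start, and ZNF562 also held it at -155. Positions give the first letter, counted back from the last base before the start, and the marked elements did not overlap each other.

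The targeted gene was higher in every sample labelled OV-BRCA1. BRCA1 had an FPKM of 35.7, 40.8 and 34.9 in the OV-BRCA1 samples and 20.1, 14.9 and 21.7 in the NC samples. All OV-BRCA1 samples lay above all NC samples, and the log2 fold change was 0.95 (SE 0.14, adjusted p = 0.00373).

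The fragments behind the FPKM values were estimated at 14.3 to 16.8 M in the OV-BRCA1 samples and 16.2 to 19.5 M in the NC samples. Only 42.1% to 48.3% of the low values came within 0.1 of a whole fragment, so read counts were not recovered. The tested members rested on a median of 134 to 186 estimated fragments per sample. Mitochondrial genes took 14.8% to 17.2% of the summed FPKM in the OV-BRCA1 samples and 21.002% to 23.2% in the NC samples, and the part of this gap in the results was not tested. Of the epithelial markers, KRT17 and KRT18 were high, KRT17 at 953 to 1131 in the OV-BRCA1 and 1425 to 1442 in the NC samples (log2 fold change -0.48, adjusted p = 0.00263) and KRT18 at 249 to 256 and 188 to 199 (log2 fold change 0.39, adjusted p = 0.000976). KRT5 (0 to 0.202), TP63 (0.0131 to 0.369), KRT19 (0.206 to 0.917) and CDH1 (0.17 to 0.896) were low, and the part of these differences in the results was not tested. Of 5 markers of other cell types, the leukocyte genes PTPRC (0 in all samples) and CD3E (at most 0.233) and the fibroblast gene COL1A2 (at most 0.144) were near absent, and the endothelial gene PECAM1 lay between 0.629 and 1.45. The other fibroblast gene, COL1A1, was detected at 3.03 to 3.56 in the OV-BRCA1 samples and 5.96 to 6.61 in the NC samples (log2 fold change -0.79, adjusted p = 0.00106), and its part in the results was not tested.

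Most members were expressed at low levels and their summed expression did not differ visibly between the groups. The summed FPKM of all members was 802, 800 and 822 in the OV-BRCA1 samples and 850, 812 and 840 in the NC samples, which was 0.166% to 0.178% of each sample's total. The ranges of the sums overlapped. The condition for testing, 3 or more samples with an FPKM of 0.5 or higher, was met by 163 members (65.5%), whose median FPKM was 3.35. Only 15 members had a mean above 10.

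Of the 86 members that were not tested, 78 had a mean FPKM below 0.1 and 48 were listed at 0 in every sample. In a table without counts a 0 can also be a failed estimate. Close to the limit, ZNF497, ZNF792 and ZNF177 were just inside it, and ZNF233, ZNF763 and ZNF546 were just outside with means of 0.362, 0.254 and 0.416. ZNF497 had an FPKM of 0.624, 0.543 and 0 in the OV-BRCA1 samples and 2.40, 0 and 0 in the NC samples, so its level rested on single samples.

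Between the groups, 41 of the 163 tested members (25.2%) passed the test (limma, adjusted p below 0.05), against 35.3% of all 16321 genes tested. In the OV-BRCA1 group 19 members (11.7%) were higher and 22 (13.5%) were lower, against 16.4% and 18.9% of all genes tested. The median log2 fold change of the tested members was 0.025, and over all genes tested it was -0.0355. With GC content and length removed from each sample the split was 12 higher and 26 lower, and with the most abundant transcript of each gene it was 10 and 6. Median-of-ratios scaling, with which the median over all genes tested was -0.00751, gave 25 higher and 22 lower. Without 1 sample at a time, the rises numbered 13 without NC replicate 1, 9 without NC replicate 2, 10 without NC replicate 3, and 12, 8 and 9 without OV-BRCA1 replicates 1, 2 and 3, and the falls numbered 14 without NC replicate 1. Over all genes tested the share past the test fell too, to 33% with GC content and length removed, 21.1% with the most abundant transcript and 27.1% to 29.2% without 1 sample.

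The genes most comparable in level, the 5013 other protein-coding genes with a mean FPKM between 0.994 and 9.49, passed the test in 31.6% of cases, 17.5% upward and 14.2% downward. The 217 tested ZNF genes of other chromosomes passed in 21.7% of cases, with 25 higher and 22 lower. Of the 741 other tested protein-coding genes of chromosome 19, 42.9% passed, with 91 higher and 227 lower, and their median log2 fold change was -0.15. These shares are given side by side without a test. With GC content and length removed, 130 of these other genes were higher and 158 lower, against 12 and 26 members, so which of the sets leaned more to lower values depended on this step.

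**Figure D1:**
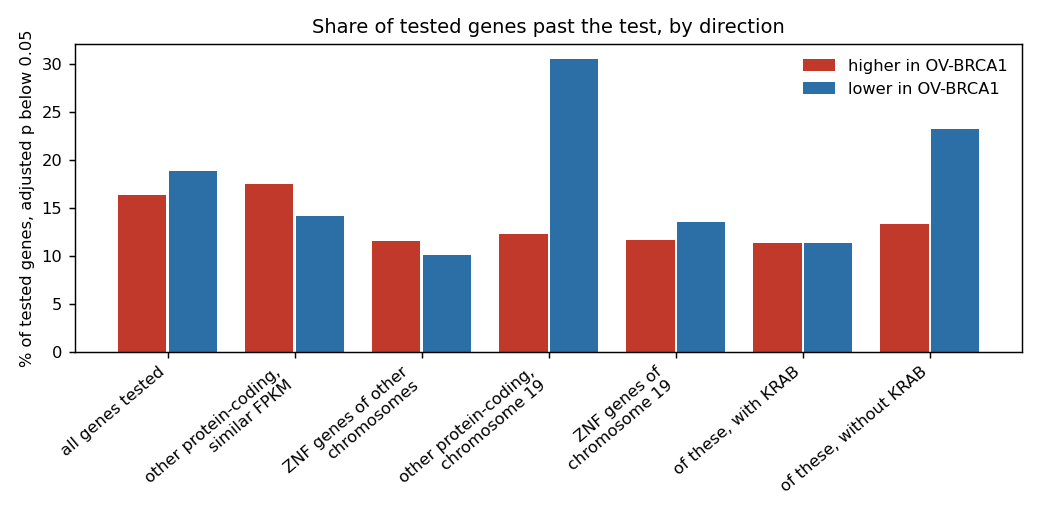
Share of the tested genes with an adjusted p below 0.05 (vertical axis, %), higher (red) or lower (blue) in the OV-BRCA1 group, for all genes, the comparison gene sets and the chromosome 19 ZNF members. The members show 11.7% higher and 13.5% lower, against 12.3% higher and 30.6% lower in the other protein-coding genes of chromosome 19.

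In 69 of the tested members (42.3%) the 3 samples of a group did not overlap with those of the other, 38 with the OV-BRCA1 group above and 31 with it below, against 50.8% of all genes tested and 49.3% of protein-coding genes of similar FPKM. The groups were separate in all 41 members that passed, but a test on 3 against 3 samples selects for this, so it adds nothing to the calls. Of these 41 members, 19 had an absolute log2 fold change above 0.5. The median absolute log2 fold change of all tested members was 0.236, near the 0.256 of all genes tested and the 0.257 of protein-coding genes of similar FPKM. Only ZNF562 met the DEG criterion of an adjusted p below 0.05 together with a log2 fold change beyond 1 in either direction, against 3.99% of all genes tested and 4.01% of protein-coding genes of similar FPKM. The study applied this cut-off to another test, DESeq, and lists ZNF83 among its downregulated genes. Fold changes are on the log2(FPKM + 1) scale, which understates the change of low genes. Fewer cells with a transcript and less transcript per cell cannot be told apart in such bulk RNA.

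The largest rises were in ZNF562 and its near neighbour ZNF121, and in ZNF296 and ZNF526 elsewhere on the chromosome. ZNF562, a KRAB zinc finger gene with 6 fingers, had an FPKM of 6.16, 10.8 and 7.58 in the OV-BRCA1 samples and 3.14, 3.26 and 3.78 in the NC samples. The groups did not overlap, and OV-BRCA1 replicate 2 was the highest. Its log2 fold change was 1.03 (SE 0.19, adjusted p = 0.00729), and it still passed the test at lower values below the DEG criterion under other settings. These values were 0.84 without OV-BRCA1 replicate 2, 0.99 without NC replicate 1, 0.91 with GC content and length removed and 0.53 with the most abundant transcript alone. An antisense gene, ZNF561-AS1, overlaps its exons, and reads of either strand cannot be separated because the use of strand is not stated.

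ZNF121, a gene with 9 fingers and no KRAB box found, had an FPKM of 9.47, 10.1 and 10.4 in the OV-BRCA1 samples and 5.30, 5.01 and 5.53 in the NC samples. The samples of each group lay close together and the groups were well apart, with a log2 fold change of 0.81 (SE 0.07, adjusted p = 0.000508). Between ZNF121 and ZNF562 lies ZNF561, which was not tested, with an FPKM between 0.110 and 0.271 in the 6 samples. Of these neighbours, the outer pair rose while the gene between them was near absent in both groups.

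ZNF296, known as a partner of KLF4, had an FPKM of 10.3, 12.3 and 9.37 in the OV-BRCA1 samples and 5.22, 5.08 and 4.95 in the NC samples. All OV-BRCA1 samples were well above the NC samples (log2 fold change 0.93, SE 0.10, adjusted p = 0.00116), although GEMIN7-AS1 overlaps this gene on the same strand. ZNF526 had an FPKM of 6.66, 6.94 and 7.29 in the OV-BRCA1 samples and 3.18, 3.39 and 3.61 in the NC samples. It overlaps no other gene and its groups were equally distinct (log2 fold change 0.86, SE 0.08, adjusted p = 0.000523).

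The next rises were less even. ZNF841 had an FPKM of 6.45, 3.86 and 7.07 in the OV-BRCA1 samples and 3.10, 3.28 and 2.56 in the NC samples. OV-BRCA1 replicate 2 was close to the NC samples, and the log2 fold change of 0.74 (SE 0.20, adjusted p = 0.0319) no longer passed without any single NC sample or without OV-BRCA1 replicate 1 or 3, with adjusted p between 0.0622 and 0.0931. It shares exons with ZNF432 on the same strand. ZNF57 had an FPKM of 4.24, 3.78 and 3.98 in the OV-BRCA1 samples and 2.91, 1.80 and 1.98 in the NC samples. The groups were separate (log2 fold change 0.65, SE 0.14, adjusted p = 0.0148), but without NC replicate 3 the adjusted p was 0.0504.

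The largest falls were in ZNF155 and ZNF224, which are members of the same gene group. ZNF155, a KRAB gene with 11 fingers, had an FPKM of 2.83, 2.04 and 2.14 in the OV-BRCA1 samples and 5.21, 5.78 and 5.21 in the NC samples. Every OV-BRCA1 sample was below every NC sample, with a log2 fold change of -0.95 (SE 0.11, adjusted p = 0.0015). ZNF224, a KRAB repressor with 18 fingers known for silencing the aldolase A gene, had an FPKM of 6.03, 7.40 and 8.68 in the OV-BRCA1 samples and 16.0, 15.8 and 12.5 in the NC samples. NC replicate 3 was the lowest of its group but stayed above all OV-BRCA1 samples, and the log2 fold change was -0.92 (SE 0.15, adjusted p = 0.00477). Both genes overlap an antisense gene on the opposite strand.

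ZNF428, a small protein with 1 finger, had an FPKM of 23.5, 21.8 and 22.2 in the OV-BRCA1 samples and 36.6, 37.9 and 36.8 in the NC samples. The replicates were tight and the groups far apart (log2 fold change -0.70, SE 0.05, adjusted p = 0.000264), and SRRM5 overlaps this gene on the opposite strand. ZNF83 had an FPKM of 26.9, 25.5 and 26.2 in the OV-BRCA1 samples and 38.1, 43.6 and 43.2 in the NC samples. The log2 fold change of ZNF83 was -0.65 (SE 0.07, adjusted p = 0.000975) for the sum over its 19 transcripts, and 0.36 (adjusted p = 0.451) for its most abundant transcript alone.

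ZNF461 had an FPKM of 1.61, 1.05 and 1.88 in the OV-BRCA1 samples and 2.73, 3.33 and 3.14 in the NC samples. The groups did not overlap (log2 fold change -0.71, SE 0.15, adjusted p = 0.0121). ZNF345, which lies in the same gene group, had an FPKM of 1.64, 1.74 and 1.42 in the OV-BRCA1 samples and 3.24, 2.92 and 3.54 in the NC samples. It was lower in all OV-BRCA1 samples (log2 fold change -0.70, SE 0.10, adjusted p = 0.00266), and with its most abundant transcript alone the log2 fold change was -0.46 (adjusted p = 0.179).

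**Figure D2:**
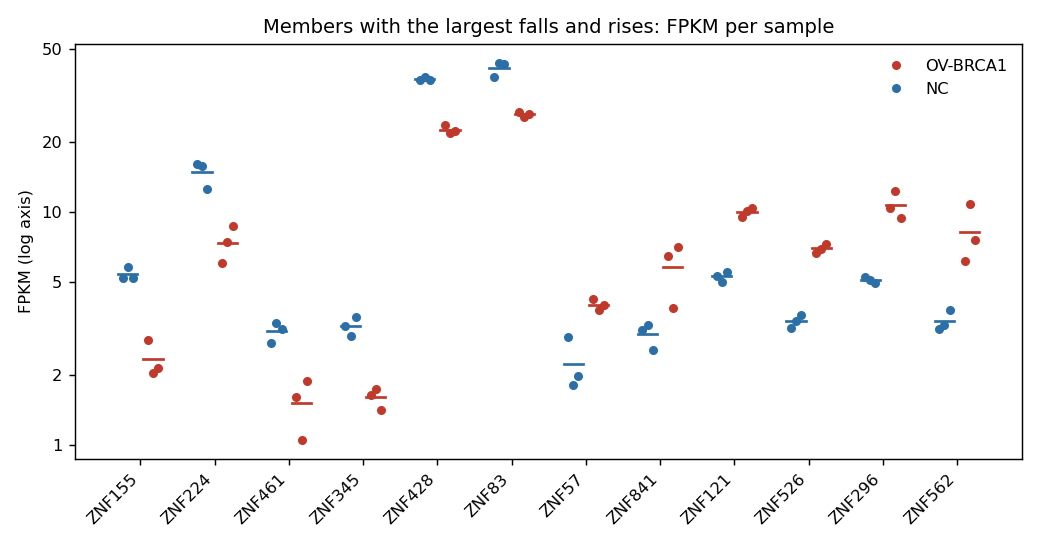
FPKM per sample (log axis) of the 6 members with the largest falls and the 6 with the largest rises among those past the test, with OV-BRCA1 samples in red, NC samples in blue and group means as bars. The groups do not overlap in any of the 12 genes, which were picked by the test itself. ZNF841 has the OV-BRCA1 sample closest to the NC samples, at 3.86 against 3.28.

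Of the most highly expressed members, ZNF83, ZNF428 and ZNF580 were lower past the test and ZNF146 was higher. The remaining one was ZNF787. ZNF580 had an FPKM of 38.3 ± 1.59 with BRCA1 overexpressed and 45.6 ± 1.86 with the empty vector (mean ± SD of 3 samples), giving a log2 fold change of -0.25 (adjusted p = 0.017), and it shares exons with CCDC106 and ZNF581 on the same strand. ZNF146 (OZF), a protein made almost wholly of fingers, had 27.99 ± 1.34 with BRCA1 overexpressed and 23.9 ± 1.18 with the empty vector (mean ± SD of 3 samples), giving a log2 fold change of 0.22 (adjusted p = 0.0389). Neither call held with GC content and length removed, with adjusted p of 0.466 for ZNF580 and 0.479 for ZNF146. Both were also lost with the most abundant transcript alone, at -0.40 for ZNF580 (adjusted p = 0.0501) and 1.33 for ZNF146 (adjusted p = 0.579). The ZNF580 call was also lost without NC replicate 1 (adjusted p = 0.0532), and that of ZNF146 without NC replicate 2 or 3 or any 1 of the OV-BRCA1 samples (adjusted p between 0.0624 and 0.108). ZNF787 had 22.4 ± 0.524 and 20.8 ± 0.749 in the same order, and its log2 fold change of 0.10 did not pass the test (adjusted p = 0.199), whereas with GC content and length removed it was 0.29 and passed (adjusted p = 0.00542).

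The share of members past the test was lowest among the least expressed members and highest in the third of 4 expression bins. In 4 equal bins of mean FPKM from low to high, 4 of 41, 10 of 41, 15 of 40 and 12 of 41 members passed, which is 9.76%, 24.4%, 37.5% and 29.3%. Other protein-coding genes in the same FPKM ranges passed in 26.6%, 29.9%, 31.2% and 40.2% of cases. The members' share was thus below that of the comparison genes in all bins but the third, a difference that was not tested.

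Members with a KRAB box moved evenly in both directions. Of the 133 tested, 15 were higher and 15 lower past the test, and the median log2 fold change was 0.04. Of the 30 tested members without a KRAB box, 4 were higher and 7 lower, with a median of -0.06. The shares past the test were 22.6% with and 36.7% without a KRAB box, the latter near the 35.3% of all genes tested. These 30 genes also had a higher GC content (median 63.3% against 44.3%) and a higher median FPKM (6.60 against 2.98). With GC content and length removed, the medians were -0.05 with and 0.04 without a KRAB box, so the order of the subsets turned round.

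Along the chromosome, the gene group from ZNF575 to ZNF296 (GRCh38 chromosome 19, 43525497 to 45076588) held the highest share of falls among gene groups with at least 5 tested members. Of its 24 members 21 were tested, of which 15 had a negative and 6 a positive log2 fold change, with a median of -0.23. The test was passed by 7 lower (33.3%) and 2 higher (9.52%) members, 42.9% in all, against 18.9%, 16.4% and 35.3% of all genes tested. In 10 of the 21 the OV-BRCA1 samples lay below all NC samples, and in 4 they lay above, 66.7% without overlap against 50.8% of all genes tested. In the same interval 21 other protein-coding genes were tested, with other zinc finger genes and symbols of AC or AL plus a digit left out. Their median was -0.08, with 7 higher and 4 lower past the test. Removing GC content and length gave a median of -0.30, with 1 higher and 10 lower.

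Besides ZNF155, ZNF224 and ZNF428, the falls in this gene group were ZNF112, ZNF226, ZNF234 and ZNF225, all KRAB genes, named here after their values had been seen. ZNF226 had an FPKM of 11.6, 10.3 and 9.73 in the OV-BRCA1 samples and 15.1, 16.3 and 15.0 in the NC samples. ZNF112 had an FPKM of 1.78, 1.62 and 2.18 in the OV-BRCA1 samples and 2.98, 3.13 and 3.43 in the NC samples. The OV-BRCA1 samples were below the NC samples throughout, with log2 fold changes of -0.52 for ZNF226 (adjusted p = 0.00444) and -0.55 for ZNF112 (adjusted p = 0.00874). ZNF234 and ZNF225 had log2 fold changes of -0.39 (adjusted p = 0.0266) and -0.38 (adjusted p = 0.0286). ZNF224, ZNF225, ZNF234 and ZNF226 are consecutive genes. ZNF222, separated from ZNF224 by ZNF223 and ZNF284, was higher, with an FPKM of 5.12, 5.31 and 4.91 against 4.22, 4.19 and 4.26 (log2 fold change 0.23, adjusted p = 0.046). This call was lost without any 1 of the 6 samples (adjusted p between 0.0704 and 0.12) and with GC content and length removed (adjusted p = 0.108). The calls of ZNF225 and ZNF234 were also lost without certain samples, ZNF225 without NC replicate 1 or 3 or OV-BRCA1 replicate 2 or 3 (adjusted p between 0.0774 and 0.0858), and ZNF234 without any 1 NC sample or OV-BRCA1 replicate 2 (adjusted p between 0.052 and 0.0793). ZNF112 and ZNF226 passed without any 1 sample, but with the most abundant transcript alone they had log2 fold changes of 0.33 (adjusted p = 0.621) and -0.61 (adjusted p = 0.18).

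The median of this gene group and most of its calls changed when transcripts were not summed. With the most abundant transcript of each gene the median was 0.03 over 20 tested members, with 1 higher and 2 lower. The lower genes were ZNF224 (log2 fold change -1.12, adjusted p = 0.048) and ZNF428 (-0.64, adjusted p = 0.00845). ZNF155 at -1.55 (adjusted p = 0.0625) and ZNF225 at -0.53 (adjusted p = 0.0885) had larger negative values than with the sum but did not pass, and ZNF234 had a smaller one at -0.17 (adjusted p = 0.358). Leaving out any 1 sample left the median between -0.31 and -0.17, with 5 to 7 lower members past the test. The members of such a gene group are close copies, and reads shared among them may be divided in a way that is not stated for these data.

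**Figure D3:**
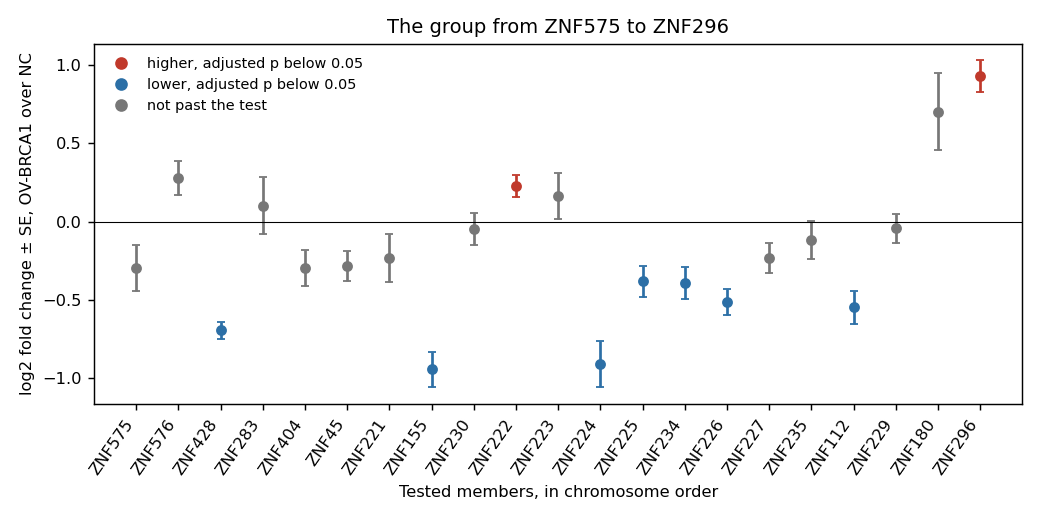
Log2 fold change (OV-BRCA1 over NC) with its standard error for the 21 tested members of the gene group from ZNF575 to ZNF296, in chromosome order. Blue points (7 genes) were lower and red points (2 genes) higher past the test, and 4 of the blue points, ZNF224 to ZNF226, stand side by side.

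Each of the other gene groups with at least 5 tested members had a median within 0.11 of 0. With GC content and length removed, these medians lay between -0.13 and 0.00441. The shares past the test are to be read against 35.3% of all genes tested. From ZNF557 to ZNF846 (14 tested, 14.3% passed, median -0.04) only ZNF121 and ZNF562 passed, both upward. From ZNF653 to ZNF791 (14 tested, median 0.06) 4 were higher and 1 lower, a share of 35.7% that is near that of all genes. Without NC replicate 3 or any 1 OV-BRCA1 sample 2 were higher, as with GC content and length removed, where the median was -0.06. The smallest adjusted p there was that of ZNF44, with an FPKM of 6.55, 6.64 and 7.19 in the OV-BRCA1 samples and 5.06, 4.52 and 4.96 in the NC samples. ZNF44 was thus moderately higher in all OV-BRCA1 samples (log2 fold change 0.42, adjusted p = 0.00811), while with its most abundant transcript alone the log2 fold change was 0.51 (adjusted p = 0.441). From ZNF565 to ZNF573 (17 tested, 35.3% passed, median 0.02) 2 were higher and 4 lower, with ZNF461 and ZNF345 among the falls. The rises numbered 0 without NC replicate 2 or 3 or OV-BRCA1 replicate 2 or 3 and 1 without NC or OV-BRCA1 replicate 1, the falls numbered 2 without NC replicate 3 and 3 otherwise, and with GC content and length removed 0 were higher and 5 lower, with the median on the negative side at -0.13.

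The gene group from ZNF101 to ZNF254 had the lowest share of members expressed enough for testing among the gene groups with at least 5 tested members. Of its 37 members, 35 with a KRAB box, 10 were tested (27%), of which 9 had a positive log2 fold change, with a median of 0.11. The test was passed by ZNF100 and ZNF738 (20%). With GC content and length removed the median was -0.01 and 0 members passed. ZNF738, with a log2 fold change of 0.33 (adjusted p = 0.0451), did not pass without any 1 sample other than NC replicate 1 (adjusted p between 0.0829 and 0.125), nor with GC content and length removed (0.22, adjusted p = 0.141). ZNF100 had an FPKM of 2.44, 2.78 and 2.33 in the OV-BRCA1 samples and 1.82, 1.86 and 1.84 in the NC samples. Its log2 fold change was 0.31 (adjusted p = 0.0328), and it was 0.07 with GC content and length removed (adjusted p = 0.577). Without any 1 sample other than OV-BRCA1 replicate 3, the adjusted p of ZNF100 was between 0.0668 and 0.0873. ZNF91 and ZNF93, known repressors of SVA and LINE-1 retrotransposons, belong to this gene group. ZNF91 was listed at 0 in every sample, and ZNF93 had an FPKM of 0.09 to 0.25, so neither was tested.

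From ZNF175 to ZNF331 (24 tested, 12.5% passed, median 0.11) 1 was higher and 2 lower, with ZNF83 and ZNF836 lower and ZNF841 higher. The median there was 0.00441 with GC content and length removed. ZNF836, with a log2 fold change of -0.33 (adjusted p = 0.0344), passed only without OV-BRCA1 replicate 3 when 1 sample was left out (adjusted p otherwise between 0.0607 and 0.0996). The terminal gene group from ZNF628 to ZNF446 was the largest (46 tested of 59, 21.7% passed, median -0.04), with 3 higher and 7 lower. Without NC replicate 1, 2 or 3 there were 3, 0 and 2 higher and 3, 4 and 5 lower, and without OV-BRCA1 replicate 1, 2 or 3 there were 0, 0 and 1 higher and 3, 4 and 6 lower. The smallest adjusted p there was that of ZNF865, with an FPKM of 7.003, 7.61 and 6.45 in the OV-BRCA1 samples and 11.1, 9.85 and 10.4 in the NC samples. ZNF865 was lower in all OV-BRCA1 samples (log2 fold change -0.51, SE 0.08, adjusted p = 0.00491) and overlaps no other gene.

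**Figure D4:**
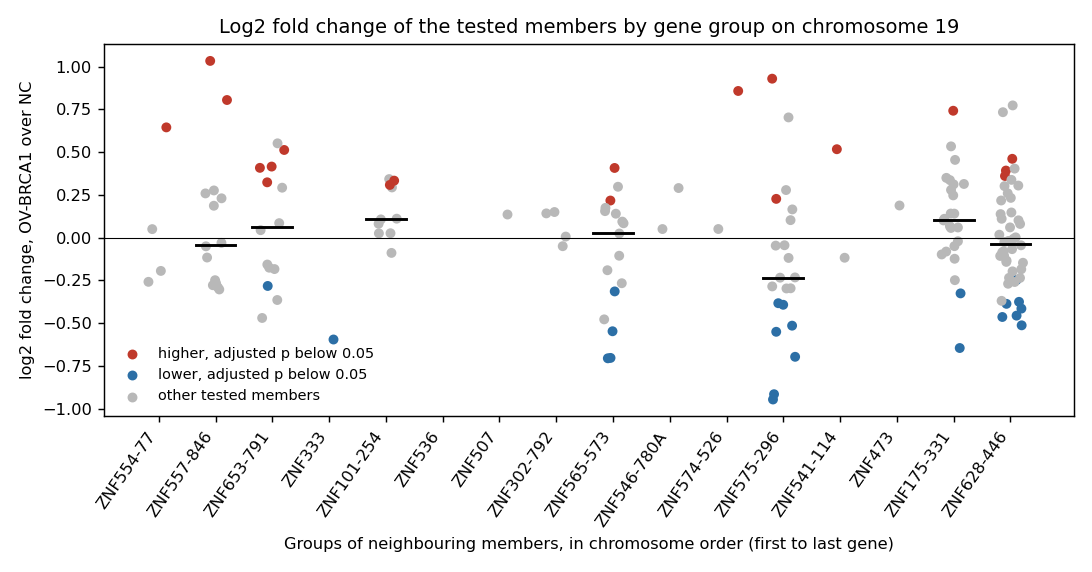
Log2 fold change (OV-BRCA1 over NC) of each tested member, arranged by gene group in chromosome order, with red and blue points past the test and black bars at the median of gene groups with at least 5 tested members. The bar of the gene group from ZNF575 to ZNF296 lies at -0.23, and the other bars lie between -0.04 and 0.11.

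Promoter sequences were matched for 217 of the 249 members and compared with 27305 promoters of the same length. Motifs were searched on both strands, and they were chosen with results of these data known. The letters CCGGAAG, a core read by ETS factors, occurred in 45.6% of member promoters and in 10.7% of all promoters. The GC box GGGCGG occurred in 68.2% of member promoters and 44.6% of all, and CCAAT in 53.9% and 35.7%. TTCNNNGAA was found in 17.5% of member promoters and 7.88% of all. ATGGCGG (YY1) was found in 8.76% and 5.72%, the NRF1 palindrome in 2.3% and 1.36% and the ZNF350 element in 0.461% and 0.355%. Promoters of paralogous genes are copies and not independent, so these shares are descriptions only.

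The elements in the printed sequences were unevenly spread over the gene groups. TGACGTCA occurred in 7 member promoters (3.23%, against 1.98% of all), of which 5 were among the 14 promoters of the gene group from ZNF557 to ZNF846. These were ZNF266, ZNF426, ZNF121, ZNF561 and ZNF562. ZNF266 and ZNF426 had log2 fold changes of -0.29 (adjusted p = 0.0783) and 0.23 (adjusted p = 0.0814). Of the 17 members with a promoter that were higher, 3 held TGACGTCA (ZNF121, ZNF562 and ZNF543), and of the 19 that were lower 0 did. ZNF543 (log2 fold change 0.39, adjusted p = 0.0457) did not pass without any 1 of the 6 samples (adjusted p between 0.0506 and 0.123).

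TTCNNNGAA was found in 15 of the 20 promoters of the gene group from ZNF575 to ZNF296 (75%). Of the 14 tested genes among these, 5 were lower (ZNF224, ZNF225, ZNF234, ZNF226 and ZNF112) and 1 was higher (ZNF222), calls of which those of ZNF222, ZNF225 and ZNF234 depend on single samples as given above, with a median log2 fold change of -0.26. Of the 4 tested genes of this gene group whose promoter lacked it, 1 was lower and 1 higher, and the median was -0.00954. Over all genes tested, 18.9% were lower and 16.4% higher. These counts cover 18 of the 21 tested members, and ZNF155, which has the largest fall, had no matched promoter and is in neither. In the other gene groups with at least 5 tested members, TTCNNNGAA occurred in 6.9% to 16.7% of promoters. Over all members with a promoter, it was present in 6 of 19 that were lower and 4 of 17 that were higher.

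ZNF350, the KRAB protein that binds BRCA1, was barely detected. Its FPKM was 0.0546, 0 and 0 in the OV-BRCA1 samples and 0.0275, 0.0236 and 0 in the NC samples. It did not meet the filter on low values and was not tested. Among its known partners and targets, GADD45A, a DNA damage gene that ZNF350 represses, had an FPKM of 33.9, 37.4 and 34.997 in the OV-BRCA1 samples and 16.1, 15.8 and 13.4 in the NC samples. GADD45A was far higher in all OV-BRCA1 samples (log2 fold change 1.18, SE 0.08, adjusted p = 0.000207) and met the DEG criterion. RBBP8 (CtIP), the protein that joins ZNF350 and BRCA1, showed a log2 fold change of 0.40 (adjusted p = 0.0469), a call that was lost without any 1 sample other than OV-BRCA1 replicate 2 (adjusted p between 0.0666 and 0.123). The RBBP8 call was also lost with GC content and length removed (0.26, adjusted p = 0.143). BARD1, the obligate partner of BRCA1, showed a log2 fold change of -0.05 (adjusted p = 0.91), and without OV-BRCA1 replicate 2 it was 0.32. ANGPT1 and HMGA2 were below the limit for testing.

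Of the remaining members picked for their known roles, ZNF473, ZNF274, ZNF675 and ZNF331 did not pass the test and ZNF382 was not tested. ZNF473, which serves histone mRNA processing with the U7 particle, had an FPKM of 8.90, 7.80 and 7.55 in the OV-BRCA1 samples and 6.76, 7.47 and 6.60 in the NC samples. All OV-BRCA1 samples were slightly above the NC samples, with a log2 fold change of 0.19 (adjusted p = 0.138). ZNF274, which guides SETDB1 to zinc finger genes themselves, had an FPKM of 16.0 ± 0.449 in OV-BRCA1 and 16.2 ± 0.741 in NC samples (mean ± SD of 3). Its log2 fold change was -0.02 (adjusted p = 0.823).

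ZNF675, known as an inhibitor of TRAF6 signalling, had an FPKM of 11.4 ± 1.58 and 11.1 ± 0.817 (mean ± SD of 3), with a log2 fold change of 0.03 (adjusted p = 0.879). ZNF331, an imprinted gene, varied more within groups than between them, from 2.16 to 4.27 in the OV-BRCA1 samples and from 2.35 to 5.81 in the NC samples (log2 fold change -0.25, adjusted p = 0.559). ZNF382, described as a tumour suppressor that is often silenced, had an FPKM of 0.00771 to 0.129.

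The proteins through which KRAB zinc finger proteins repress chromatin were read from a list of 35 genes, all of which were tested. In the OV-BRCA1 group 13 of them (37.1%) were lower and 2 (5.71%) higher past the test, against 18.9% and 16.4% of all genes tested. The median log2 fold change was -0.16, with 28 negative and 7 positive values. By its own test, the study lists DNMT1, EHMT2, DAXX and ATF7IP2 among its downregulated genes. TRIM28 itself had an FPKM of 159, 140 and 172 in the OV-BRCA1 samples and 167, 173 and 161 in the NC samples. The groups overlapped, and its log2 fold change of -0.09 did not pass the test (adjusted p = 0.408).

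SETDB1, the H3K9 methyltransferase recruited by TRIM28, had an FPKM of 9.71, 10.3 and 11.5 in the OV-BRCA1 samples and 15.5, 16.1 and 15.0 in the NC samples. All OV-BRCA1 samples lay below the NC samples (log2 fold change -0.52, SE 0.08, adjusted p = 0.00348). The NuRD genes CHD3, a remodelling ATPase that binds TRIM28, and HDAC1, a histone deacetylase, fell most. CHD3 had an FPKM of 33.1, 32.1 and 30.4 in the OV-BRCA1 samples and 56.9, 58.9 and 58.9 in the NC samples. HDAC1 had an FPKM of 47.4, 48.0 and 45.8 in the OV-BRCA1 samples and 83.9, 78.1 and 80.1 in the NC samples. The groups of both genes were far apart, with log2 fold changes of -0.85 (adjusted p = 0.000119) and -0.77 (adjusted p = 0.000134).

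CBX5 (HP1 alpha), which binds methylated H3K9, was lower with a log2 fold change of -0.60 (adjusted p = 0.00134), whereas its relatives CBX1 and CBX3 had -0.16 (adjusted p = 0.0555) and -0.01. The NuRD subunits MBD3 and MTA2 had log2 fold changes of -0.31 each (adjusted p = 0.00465 and 0.00467), but with GC content and length removed MBD3 reached -0.13 and did not pass (adjusted p = 0.0958). The paralogous NuRD genes CHD4 and HDAC2 had log2 fold changes of 0.06 and 0.23 and did not pass the test. The higher genes were GATAD2A, a NuRD subunit, at 0.69 (adjusted p = 0.0251) and SUV39H2, an H3K9 methyltransferase, at 0.58 (adjusted p = 0.0158). Neither of these passed without NC replicate 2, without NC replicate 3 or without OV-BRCA1 replicate 3 (adjusted p between 0.0505 and 0.0747), and GATAD2A did not pass without OV-BRCA1 replicate 1 either (adjusted p = 0.0701). With the most abundant transcript alone, the log2 fold change was -0.25 for HDAC1 (adjusted p = 0.772), -0.80 for GATAD2A (adjusted p = 0.563) and 0.31 for SUV39H2 (adjusted p = 0.692).

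**Figure D5:**
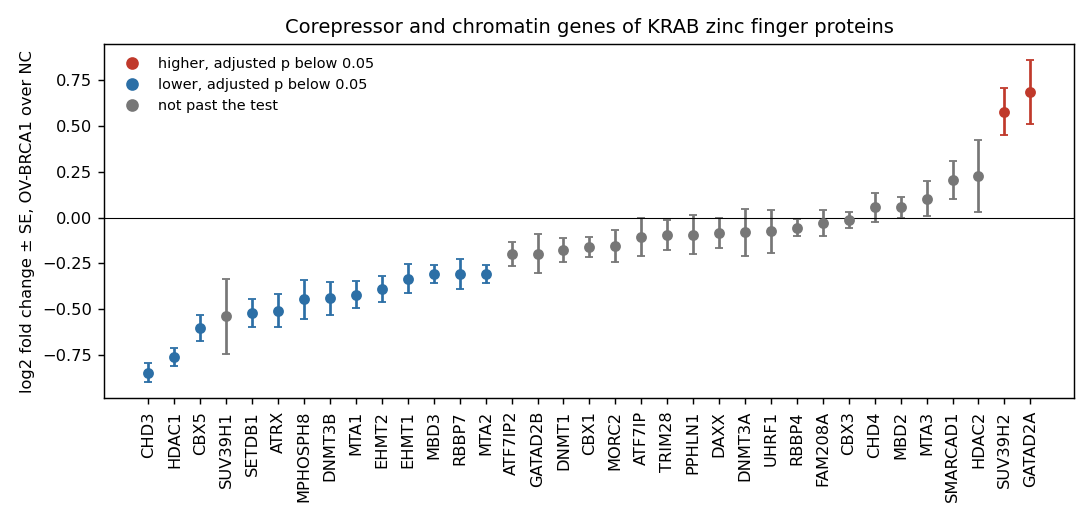
Log2 fold change (OV-BRCA1 over NC) with its standard error for the 35 corepressor and chromatin genes, ordered by value. Blue points (13 genes) were lower and red points (2 genes) higher past the test, from CHD3 at -0.85 to GATAD2A at 0.69, and TRIM28 lies at -0.09.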

How the data were processed

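Bead-captured mRNA of SiHa cells was sequenced in 3 OV-BRCA1 and 3 NC samples, grouped by their labels. The values are FPKM per transcript, made and deposited by the authors, 199167 transcripts of 58174 genes. The submitters' processing notes name FastQC, HISAT2 and hg38, while the quantification tool, the annotation and the use of strand are not given in the sources used here. The study tested counts with DESeq, which FPKM does not allow.

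FPKM was summed per gene and named by GENCODE release 29, which placed 98.7% of its transcripts at the same position, and 338 genes kept their identifier. Genes reaching an FPKM of 0.5 in 3 or more samples were tested on log2(FPKM + 1) with limma 3.58.1 (moderated test with trend) in R 4.3.3, with Benjamini-Hochberg adjustment over all 16321 genes. The code was run on simulated normal values with the fitted means and spreads. Such values cannot show effects of FPKM input or of reads shared between copies. Python 3.11.15, numpy 2.4.6, pandas 2.3.3 and matplotlib 3.10.9 were used otherwise. Depth was estimated from 14216 genes with a single transcript.

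The members and lists were chosen with earlier results of these data known. Members named were ZNF350, ZNF473, ZNF274, ZNF91, ZNF93, ZNF382, ZNF675, ZNF224 and ZNF331, those past the DEG criterion, the 6 largest rises and falls past the test, the 5 highest by FPKM, the smallest adjusted p-value of each gene group with at least 5 tested members, and 3 on either side of the filter. Of the 35 corepressor genes TRIM28, SETDB1 and those with the smallest adjusted p-values were named, and the other genes named were chosen after their values had been seen. A KRAB box was called where at least 9 of 15 conserved positions of a window in the translated coding sequence matched. Alternatives were a pseudocount of 0.1, no filter, a filter of 1, each sample left out, a block for the replicate number, median-of-ratios scaling, loess removal of GC content and length (span 0.5), the most abundant transcript and members overlapping no other gene.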

Additional observations from a re-analysis of the deposited data

How the results depend on the processing

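The members that passed the test numbered 19 higher and 22 lower. The rises were 12 with GC content and length removed, 10 with the most abundant transcript, 8 without a filter on low values and 6 among members overlapping no other gene, a smaller set. With median-of-ratios scaling 25 were higher and 22 lower. This scaling moved log2 fold changes upward, and by unlike amounts. The low gene ZNF177 went from 0.1865 to 0.199 and the high gene ZNF428 from -0.6974 to -0.6611. The falls were 6 with the most abundant transcript and 7 among members overlapping no other gene. Without 1 sample, the rises ranged from 8 to 13, the falls from 14 to 19 and members past the DEG criterion from 0 to 3. Over all genes tested, the share past the test was 35.3%, and it became 33% with GC content and length removed, 21.1% with the most abundant transcript, 14.5% without a filter and 27.1% to 29.2% without 1 sample. The DEG criterion was passed by 3 members with GC content and length removed, 4 with the most abundant transcript and 6 with a pseudocount of 0.1, which leaves low genes less compressed. The median log2 fold change of 0.025 became -0.0399 with GC content and length removed, 0.0515 with median-of-ratios scaling, 0.115 with the most abundant transcript, 0.0061 without a filter, 0.0555 with a pseudocount of 0.1 and -0.0069 among members overlapping no other gene, and it ranged from 0.0042 to 0.0411 without 1 sample. Over the other protein-coding genes of similar FPKM the median of 0.0154 moved alike to -0.0356 with GC content and length removed and to 0.0454 with median-of-ratios scaling. It moved less than that of the members with the most abundant transcript (0.0267) and a pseudocount of 0.1 (0.0183). Without a filter it stayed at 0.0154 over the same genes. Of the corepressor genes, 11 to 12 were lower and 0 to 2 higher without 1 sample, and 1 was higher without a filter. They were not counted with the most abundant transcript. Of those read singly in that setting, HDAC1, GATAD2A and SUV39H2 did not pass, and CHD3, SETDB1, CBX5, MBD3 and MTA2 did. Other causes were not tested.

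Directions turned round for genes that did not pass the test and, with the most abundant transcript, also for some that did. ZNF274 became 0.0154 with median-of-ratios scaling. ZNF675 became -0.11 with GC content and length removed and -0.29 with the most abundant transcript. ZNF497 became 0.0171 with GC content and length removed, 0.19 with the most abundant transcript and 0.30 with a pseudocount of 0.1. TRIM28 became 0.0705 with GC content and length removed. Of genes past the test, ZNF83 became 0.36, ZNF112 0.33 and GATAD2A -0.80 with the most abundant transcript. Without 1 sample, log2 fold changes ranged from -0.0471 to 0.0137 for ZNF274, from -0.0398 to 0.1352 for ZNF675, from -0.4918 to 0.0192 for ZNF331, from -0.4417 to 0.4417 for ZNF497 and from -0.2584 to 0.3182 for BARD1.

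With the replicate number as a block, 10 members were higher and 15 lower, and 1 corepressor gene was higher. The labels do not say whether same-numbered samples were prepared together. Their deviations correlated at -0.024, 0.025 and 0.014, which cannot decide this, and no pairing was used in the main test. ZNF224, ZNF562, ZNF461, ZNF428, ZNF121, ZNF526, ZNF296 and ZNF865 passed the test under all 13 alternatives run for single genes.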
